A study of Mus musculus with 7 samples.

Results

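The hairpins of miR-28a and miR-151 each give a mature miRNA from both arms, and these 4 arms are described here in small RNA libraries of the mouse brain ventricles. They are the rows mmu-miR-28a-5p, mmu-miR-28a-3p, mmu-miR-151-5p and mmu-miR-151-3p, which are 4 of 1914 rows for mature mouse miRNAs, and all 4 had reads in every library. They were selected by name, and the rule also names measured values, the level of each arm and the arm ratio of each hairpin in knockout against wild type. The arms therefore count as chosen by these values, which are given as descriptions. Where a count of calls includes them, it stands beside the share over all miRNAs and nothing is read from it. Tissue was taken from adult mice of strain C57BL/6J and comprised choroid plexus and lateral ventricles. The knockout group (KO, 4 libraries) lacked TAp73, the p73 isoform class that has a transactivation domain, and the wild-type group (WT, 3 libraries) shared strain, stage and tissue. The labels do not say how the allele was made, which cells lost it or whether each library was 1 animal. The series title sets the comparison in the study of multiciliated cells of the brain.

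LINE2 elements are old retrotransposons that no longer move in mammals, and both hairpins are known to have arisen from copies of them. Mir28a lies inside Lpp, a gene for a protein of cell adhesion sites, and Mir151 lies inside Ptk2, the gene for focal adhesion kinase. In human cells miR-28-3p is known to repress the metastasis suppressor gene NME1. The precursor of miR-151 is a known substrate of A-to-I RNA editing in mammalian brain, which hinders its cleavage by Dicer. Tables of reads per name, as used here, do not show editing.

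In GENCODE release M21 (build GRCm38), Mir28a spans 86 bases on chromosome 16, from 24827855 to 24827940 on the plus strand. It is intronic in the 3 coding transcripts of Lpp that span it, in intron 8 of a 13-exon transcript. Mir151 spans 68 bases on chromosome 15, from 73254815 to 73254882 on the minus strand. It is intronic in the 2 coding transcripts of Ptk2 that span it, in intron 23 of a 34-exon transcript, and the antisense gene 1700085D07Rik covers it on the other strand. Both hairpins are transcribed in the direction of their host genes, and Trp73, which encodes p73, lies apart from them on chromosome 4.

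The mature sequences of miR-28a are shown with those of its relatives because the seed, bases 2 to 8, sets which rows could share targets, and here it is in capitals. They are RefSeq sequences on build GRCm38.p6, 5′ to 3′.
miR-28a-5p: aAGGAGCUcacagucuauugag
miR-28b: aGGAGCUCacaaucuauuuag
miR-708-5p: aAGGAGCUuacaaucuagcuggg
miR-28a-3p: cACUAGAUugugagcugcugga
miR-708-3p: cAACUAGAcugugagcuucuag
Among the 1679 mature names in that table, 1 other, miR-708-5p, carried the seed of miR-28a-5p, and 0 others carried that of miR-28a-3p. The 5p arms of miR-28a and miR-708 were identical at 18 of 22 aligned bases, in 2 stretches of which the first holds the seed. The mature sequence of miR-28b matched miR-28a-5p at 19 of 21 bases but began 1 base later, so that its seed was shifted. The 3p arms of miR-28a and miR-708 matched at 17 of 21 bases, also with a shift of 1 base. The seeds of miR-151-5p and miR-151-3p were not compared.

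The libraries held 955057 to 9233235 mouse miRNA reads in the KO group and 2211619 to 3647102 in the WT group. Levels are in counts per 1000000 mouse miRNA reads (CPM). A count of 0 is compatible with up to 3 reads, which make 3.14 CPM in KO replicate 3, the library with the fewest reads, and 0.325 CPM in KO replicate 1, the one with the most. Markers of the labelled tissue were present: the choroid plexus miRNAs miR-204-5p, miR-204-3p and miR-211-5p summed to 2016 to 7435 CPM in KO libraries and 2015 to 11789 CPM in WT libraries. The tables hold small RNA only, so Trp73 was not measured and the KO labels could not be checked on it. In bulk tissue, fewer cells of a type and less RNA per cell cannot be told apart. No batch is given in the labels.

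The 2 hairpins differed widely in level. Summed over its arms, miR-151 took 1.06% to 1.39% of all mouse miRNA reads, and it was 241.4 to 389.6 times as abundant as miR-28a within the same library, with a median of 348.9. By mean level miR-151-3p ranked 29th and miR-151-5p 31st among the 1914 rows, while miR-28a-5p ranked 333rd and miR-28a-3p 339th. The next rows above and below miR-151-3p (6222 ± 711.8 CPM, SD, n = 7) were miR-204-5p at 6225 ± 3521 CPM and let-7a-5p at 6029 ± 987.03 CPM. Those around miR-28a-5p (19.8 ± 6.70 CPM) were miR-6236 at 20.2 ± 9.33 CPM and miR-338-3p at 19.75 ± 5.47 CPM. None of these neighbours stood on one side of the arm in all 7 libraries.

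**Figure D1:**
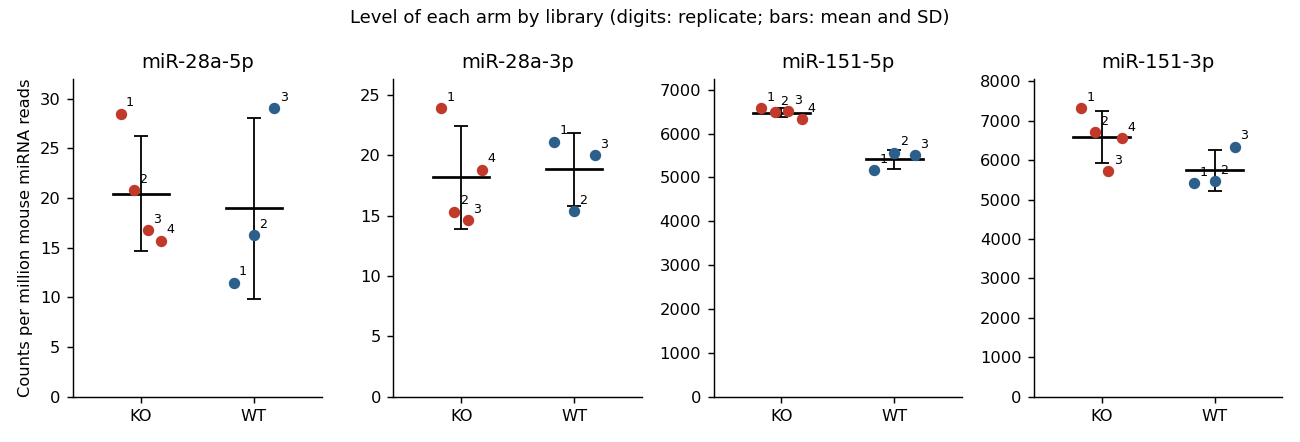
Level of each arm in CPM (y axis, from 0, with a scale of its own in each panel) in the 4 KO and 3 WT libraries. Digits name the replicate, the wide line is the mean and the bars are the SD. The KO values of miR-151-5p sit between 6328 and 6588, all above the WT values, while for the other 3 arms the groups overlap.

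The more evenly measured arm of miR-151 was the 5p arm, and it was the one member whose groups did not overlap. miR-151-5p stood at 6588, 6483, 6516 and 6328 CPM in KO replicates 1 to 4, against 5170, 5567 and 5507 CPM in WT replicates 1 to 3. The lowest KO library was thus 1.137-fold above the highest WT library. It averaged 6479 ± 109.4 CPM in KO libraries (SD, n = 4) and 5415 ± 214.0 CPM in WT libraries (SD, n = 3). The spread within a genotype was small, with a coefficient of variation of 1.69% in KO libraries and 3.95% in WT libraries, while counting error alone gives a mean of 0.690% and 0.818% on the 6223 to 60824 reads of KO libraries and the 12313 to 20083 reads of WT libraries. In edgeR's fit over all tested miRNAs, with TMM scaling between libraries, the log2 fold change was 0.34 ± 0.10 (KO minus WT, ± SE), or 1.26-fold with a 95% interval of 1.08 to 1.48. TMM scaling raised all log2 fold changes by a median of 0.080 over plain CPM, and with library totals alone the value was 0.26. Of the 534 tested miRNAs, only 2 had a smaller SE than miR-151-5p.

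For miR-151-3p the groups overlapped. It stood at 7325, 6710, 5722 and 6562 CPM in KO replicates 1 to 4, against 5419, 5474 and 6342 CPM in WT replicates 1 to 3. KO replicate 3 lay below WT replicate 3, while the other 3 KO libraries lay above each WT library. The means were 6580 ± 660.5 CPM in KO libraries (SD, n = 4) and 5745 ± 518.0 CPM in WT libraries (SD, n = 3), with a log2 fold change of 0.28 ± 0.12, or 1.21-fold (95% interval 1.01 to 1.46). The log2 fold change was 0.43 in the 4 libraries with consecutive title numbers, KO replicates 1 and 2 and WT replicates 1 and 2. Its spread within a genotype was wider than that of the 5p arm, at 10.04% in KO libraries and 9.02% in WT libraries. Summed over both arms, miR-151 stood at 12238 to 13913 CPM in KO libraries and 10589 to 11849 CPM in WT libraries. These ranges did not overlap, by a factor of 1.03 between the nearest libraries. Sums were not compared over all hairpins, so no share can be set beside this, and nothing is read from it. The sum also contains miR-151-5p, whose own groups did not overlap. The sum averaged 13058 ± 695.2 CPM in KO libraries (SD, n = 4) and 11160 ± 638.3 CPM in WT libraries (SD, n = 3), a difference of 0.23 ± 0.061 in mean log2 CPM (± SE). That difference is in plain CPM, unlike the TMM-scaled fold changes of the arms, and with TMM-scaled CPM it was 0.30.

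miR-28a showed no such separation, on far fewer reads. miR-28a-5p stood at 28.5, 20.8, 16.8 and 15.7 CPM in KO replicates 1 to 4, against 11.5, 16.3 and 29.1 CPM in WT replicates 1 to 3. The lowest and the highest of the 7 values were both WT libraries, and the reads behind them ran from 16 in KO replicate 3 to 263 in KO replicate 1. The means were 20.4 ± 5.79 CPM in KO libraries (SD, n = 4) and 18.9 ± 9.09 CPM in WT libraries (SD, n = 3), with a log2 fold change of 0.22 ± 0.32 and a 95% interval of the fold from 0.721 to 1.89. The coefficient of variation was 28.4% in KO libraries and 48.0% in WT libraries, while counting error alone gives a mean of 13.0% and 14.8%. The log2 fold change moved with single libraries: it was -0.05 without WT replicate 1, -0.02 without KO replicate 1 and 0.67 without WT replicate 3. In the 4 libraries with consecutive title numbers it was 0.90.

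miR-28a-3p stood at 23.9, 15.3, 14.7 and 18.8 CPM in KO replicates 1 to 4, against 21.1, 15.4 and 20.02 CPM in WT replicates 1 to 3. The WT values lay within the range of the KO values. Their means were 18.2 ± 4.24 CPM in KO libraries (SD, n = 4) and 18.8 ± 3.05 CPM in WT libraries (SD, n = 3). The log2 fold change was 0.06 ± 0.24, or 1.04-fold with a 95% interval of 0.723 to 1.504. Its sign turned with library totals alone, at -0.02, and with upper-quartile factors, at -0.006. The sum of the arms was 38.6 ± 9.40 CPM in KO libraries and 37.8 ± 9.80 CPM in WT libraries, a difference of 0.03 ± 0.25 in mean log2 CPM. With TMM-scaled CPM that difference was 0.11. The sum was highest in KO replicate 1 at 52.4 CPM and WT replicate 3 at 49.1 CPM and lay between 31.4 and 36.1 CPM in the other 5 libraries.

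Over all miRNAs, edgeR's quasi-likelihood test with Benjamini-Hochberg adjustment called 0 of the 4 arms, against 6 of 534 tested, or 1.12%, of which 2 were higher in KO libraries (0.375%) and 4 lower (0.749%). At an unadjusted p under 0.05 stood 2 of the 4, both arms of miR-151, and 69 of all 534, or 12.9%. limma-voom called 0 of the 4 arms and 5 of all 534, or 0.936%. DESeq2 called 1 of the 4, miR-151-5p, and 3.18% of the 440 miRNAs to which it gave an adjusted p. The choice of the arms used this contrast, so these counts are no evidence for a change in them. In CPM, 19 of the 534 (3.56%) had each KO library above each WT library and 44 (8.24%) each KO library below, 63 (11.8%) in all, and 1 of the 4 arms, miR-151-5p, was among the 19. With TMM-scaled CPM, 26 (4.87%) had each KO library above, again with miR-151-5p as 1 of the 4 arms. Such separation was more common among abundant miRNAs. Of the 64 tested miRNAs with a mean of at least 1000 CPM, 10 had each KO library above in plain CPM, among them miR-151-5p. Another 6 of the 64 had each KO library below. The 4 log2 fold changes were positive with TMM scaling, with a median of 0.25, beside a median of -0.02 over all tested miRNAs, of which 252 were positive, and the 4 were chosen with earlier results of these data known. The miRNAs with a larger log2 fold change numbered 75 for miR-151-5p, 94 for miR-151-3p, 120 for miR-28a-5p and 218 for miR-28a-3p.

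**Figure D2:**
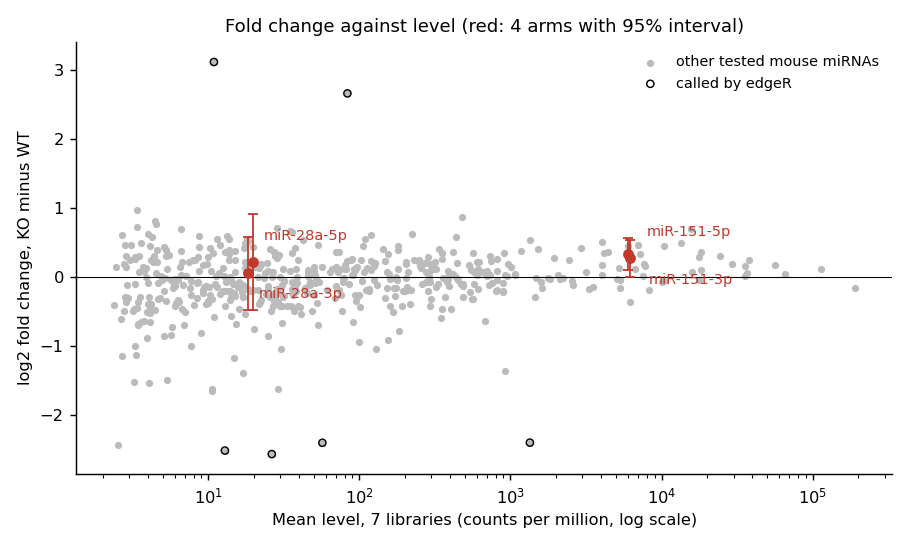
Log2 fold change, KO minus WT (y axis), against the mean level over 7 libraries in CPM (x axis, log scale) for 534 tested mouse miRNAs in the edgeR fit. Red points are the 4 arms with their 95% intervals and open circles the 6 called miRNAs, none of which is a red point. The intervals of the miR-28a arms cross 0, and those of the miR-151 arms lie above it. They are not adjusted for the 534 miRNAs tested, and the choice of the arms used this contrast, so they are descriptions.

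Levels of cell type markers stood beside these differences as follows. The 6 listed miRNAs of multiciliated cells, those of miR-449 and miR-34b/c, summed to 385.3 to 760.5 CPM in KO libraries and 1291 to 3675 CPM in WT libraries, and these ranges did not overlap. The sum hides opposite directions, and its split by family was made after the values were seen. The 4 rows of miR-34b/c were each called lower in KO libraries by edgeR and summed to 330.9 to 587.4 CPM in KO libraries and 1260 to 3652 CPM in WT libraries. The 2 rows of miR-449 were each called higher in KO libraries and summed to 54.4 to 209.7 CPM in KO libraries and 19.3 to 31.2 CPM in WT libraries. Marker sums for neurons (28782 to 33938 CPM in KO and 17003 to 29148 CPM in WT libraries), oligodendrocytes (356.0 to 517.4 and 387.0 to 680.3 CPM), erythrocytes (3751 to 5198 and 3852 to 4183 CPM) and leukocytes and microglia (585.2 to 782.2 and 530.8 to 595.3 CPM) overlapped between KO and WT libraries, as did those of the choroid plexus. For neurons the overlap came from WT replicate 2 alone, at 29148 CPM above KO replicates 1 (28782 CPM) and 4 (29145 CPM). WT replicates 1 and 3, at 24513 and 17003 CPM, lay below each KO library. For leukocytes and microglia the overlap came from WT replicate 1 alone, at 595.3 CPM above KO replicate 4 at 585.2 CPM. All 23 listed markers were found and none was at 0 in all libraries. The part of these cells in the level of miR-151 was not tested. The pituitary and hypothalamus pair, miR-7a-5p and miR-375-3p, was highest in the same 2 libraries as miR-28a, at 553.1 CPM in KO replicate 1 and 1234 CPM in WT replicate 3, against 259.7 to 406.6 CPM in the other 5. Within each genotype the choroid plexus sum was also highest in KO replicate 1 (7435 CPM) and in WT replicate 3 (11789 CPM). In that sum WT replicate 1, at 8320 CPM, lay above KO replicate 1. These matches were noticed after the values were seen, and the part of these cells in miR-28a was not tested.

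Both hairpins used their arms almost evenly. The 5p arm took 50.9% ± 8.23 of the reads of miR-28a and 49.2% ± 2.19 of those of miR-151 (SD, n = 7). Of 143 mouse hairpins with both arms named and a mean of at least 10 reads on each, 17 had a mean 5p share between 40% and 60%, and 70 lay between 10% and 90%. The related miR-708, whose hairpin lies in an intron of Tenm4, gave 27.8% ± 2.16 of its reads from the 5p arm, and its 3p arm was 2.38 to 3.08 times as abundant in every library. Of the 3 hairpins, miR-708 was thus the one with a leading arm in all 7 libraries.

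**Figure D3:**
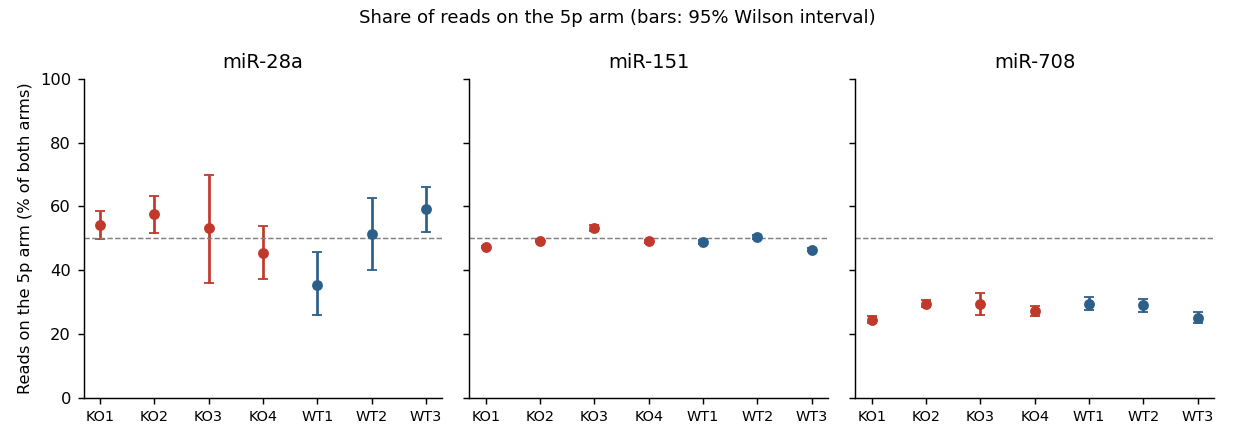
Share of each hairpin's reads that lay on the 5p arm, in percent of both arms (y axis), by library (x axis; red KO, blue WT), with 95% Wilson intervals, which cover counting error only. miR-28a and miR-151 scatter around the dashed line at 50%, with wide intervals for miR-28a, and miR-708 lies between 24.5% and 29.5%.

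For miR-151 the arm share moved by a few percent between libraries, and this was more than the counting error. The 5p share was 47.3%, 49.1%, 53.2% and 49.1% in KO replicates 1 to 4, against 48.8%, 50.4% and 46.5% in WT replicates 1 to 3. The 3p arm led in 5 libraries, and the 5p arm led in KO replicate 3 (Wilson 95% interval 52.3% to 54.1%) and in WT replicate 2 (49.8% to 51.0%), whose interval reaches an even split. The chi-square of the arm reads over the 7 libraries was 50.8 per degree of freedom, where counting error alone gives a value near 1, although reads of the same molecule cannot be recognised in these libraries and are counted apart. In mean log2(5p/3p) with 0.5 reads added, miR-151 stood at -0.02 ± 0.14 in KO libraries (SD, n = 4) and -0.08 ± 0.11 in WT libraries (SD, n = 3). The difference was 0.07 ± 0.17 (± SE from limma's fit over all hairpins, 95% interval -0.33 to 0.46), and it was -0.003 without KO replicate 3. Its arm ratio had an SD over 7 libraries of 0.13 on the log2 scale, against a median of 0.37, and 7 of the 143 hairpins had a smaller one. This SD includes counting error, which is small on the many reads of miR-151. It is larger for hairpins with few reads, and only 39 of the 143 had at least 50 reads on each arm in every library. The low SD therefore does not show an arm ratio that is steadier beyond counting error.

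For miR-28a the arm share varied more widely, on 30 to 484 reads per library. Its 5p share was 54.3%, 57.6%, 53.3% and 45.5% in KO replicates 1 to 4, against 35.2%, 51.4% and 59.2% in WT replicates 1 to 3. The lowest and the highest share were again WT libraries, and WT replicate 1 (Wilson 95% interval 26.1% to 45.6%) and WT replicate 3 (51.9% to 66.2%) did not overlap each other. The chi-square was 3.28 per degree of freedom. Mean log2(5p/3p) was 0.15 ± 0.29 in KO libraries (SD, n = 4) and -0.08 ± 0.72 in WT libraries (SD, n = 3). The difference of 0.24 ± 0.34 had a 95% interval of -0.55 to 1.03 and turned to -0.15 without WT replicate 1. It was 0.55 without WT replicate 3 and 0.74 in the 4 libraries with consecutive title numbers.

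Over the 143 hairpins, limma called 0 arm ratios between KO and WT (0%), with 4 at an unadjusted p under 0.05, which was 2.8% of them. The groups did not overlap in 10 hairpins, or 6.99%, and miR-28a and miR-151 were not among these. The median absolute difference was 0.22 on the log2 scale, and 66 hairpins had a larger one than miR-28a and 115 a larger one than miR-151. Per library, the median deviation of the arm ratio from each hairpin's own mean lay between -0.04 and 0.03 over all hairpins. In KO replicate 3 that median was -0.01, while the arm ratio of miR-151 stood 0.23 above its own mean. The shares of miR-151 and miR-708 on the 5p arm were both lowest in KO replicate 1 and WT replicate 3. The arm ratio of miR-28a went the other way there, at 0.20 and 0.48 above its own mean. This comparison was not planned.

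**Figure D4:**
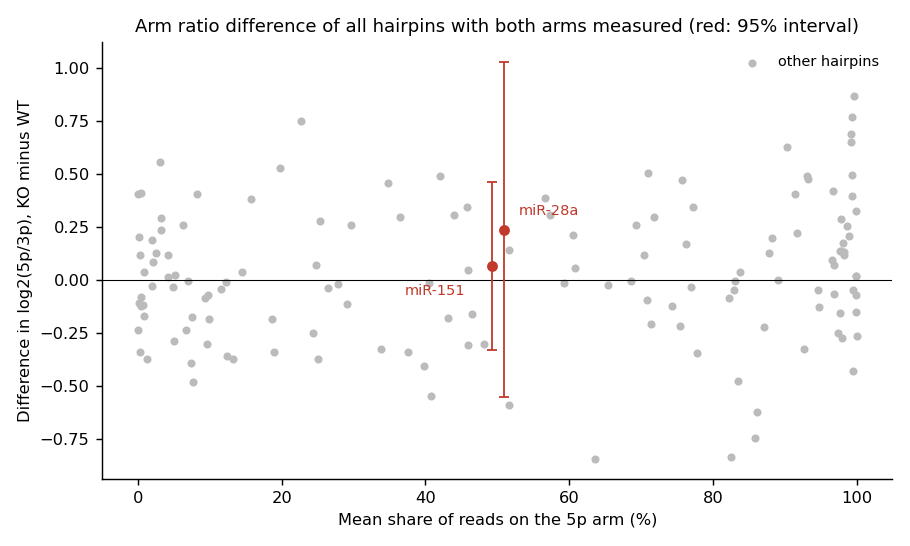
Difference in mean log2(5p/3p), KO minus WT (y axis), against the mean share of reads on the 5p arm in percent (x axis) for 143 mouse hairpins. Red points are miR-28a and miR-151 with 95% intervals from limma, and both intervals cross 0.

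The arms of a hairpin come from the same transcript, and their levels were compared across the 7 libraries, which share the same total as denominator. For miR-28a, Pearson's r of log2 CPM between the arms was 0.28 and Spearman's rho was 0.071, given as descriptions without a p because the choice of the arms used these levels. Without WT replicate 3 and KO replicate 1, the libraries farthest from the median of miR-28a-5p, r was -0.81 (n = 5), so its sign rests on those 2 libraries. Without KO replicate 1 alone it was -0.10, and without WT replicate 1 it was 0.72. The relation between the arms of miR-151 is not given, because miR-151-5p fell into separate ranges by genotype and neither genotype has 6 libraries, and the same holds for the summed levels of miR-28a and miR-151.

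As a description of likeness over the 7 libraries, Pearson's r of log2 CPM, here with 0.5 reads added, was taken between the more abundant arm of each hairpin and the other 533 tested miRNAs. The most similar to miR-28a-5p were miR-744-5p (r = 0.98), miR-6944-3p (0.96) and miR-125b-1-3p (0.95), while its own 3p arm came 197th. Those most similar to miR-151-3p were miR-6911-3p (0.94), miR-92b-3p (0.93) and miR-30e-3p (0.91). For both arms these are the highest of 533 values on 7 libraries. Both genotypes are pooled, so a difference between KO and WT libraries enters r. miR-6911-3p averaged only 3.375 CPM, near the 3.14 CPM that 3 reads make in KO replicate 3.

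The relatives of miR-28a differed from it in level. miR-708-5p, which carries the same seed, stood at 190.4, 234.3, 215.7 and 206.7 CPM in KO replicates 1 to 4, against 215.4, 254.1 and 164.5 CPM in WT replicates 1 to 3. The KO values lay within the range of the WT values. It averaged 211.8 ± 18.3 CPM in KO libraries (SD, n = 4) and 211.3 ± 44.9 CPM in WT libraries (SD, n = 3), with a log2 fold change of 0.07 ± 0.18 (edgeR adjusted p = 0.87). miR-708-3p averaged 554.2 ± 27.8 CPM in KO libraries and 542.1 ± 70.6 CPM in WT libraries, with a log2 fold change of 0.11 ± 0.14 (edgeR adjusted p = 0.76). miR-28b and miR-28c had 0 reads in all 7 libraries, which allows up to 0.325 CPM in KO replicate 1 and 3.14 CPM in KO replicate 3. How the reads of such related sequences were assigned to rows is not stated.

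Other hairpins tied to LINE2 repeats in published surveys of human hairpins, a link not checked here, were taken from a list of 6, namely miR-325, miR-374b, miR-374c, miR-421, miR-493 and miR-545, of which miR-545 had no mouse row found under its name. Of their 10 rows, 8 had reads and 5 were tested, and edgeR called 0 of them in either direction (smallest adjusted p = 0.61), with 0 at an unadjusted p under 0.05, where 12.9% of all tested miRNAs stood, and 0 called by DESeq2. On 5 rows a count of 0 differs little from these shares. Their median log2 fold change was -0.10, with 2 of 5 positive, beside the median of -0.02 over all tested miRNAs. The most abundant was miR-421-3p, at 312.0 ± 36.7 CPM in KO libraries (SD, n = 4) and 354.2 ± 89.1 CPM in WT libraries (SD, n = 3), with a log2 fold change of -0.10 ± 0.18 and an edgeR adjusted p of 0.82. The others were miR-493-5p at 0.34 ± 0.27, miR-374b-5p at -0.20 ± 0.24, miR-325-5p at -0.10 ± 0.25 and miR-325-3p at 0.01 ± 0.20. The 3 arms with reads that were too low to test, miR-421-5p, miR-493-3p and miR-374b-3p, had 33, 38 and 7 reads in total. Among the LINE2-linked miRNAs measured, miR-151 had the highest levels, and the arms of miR-28a lay between miR-325-5p, at 14.6 CPM over the 7 libraries, and miR-325-3p, at 21.3 CPM.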

How the data were processed

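Total RNA was extracted with phenol and chloroform and sequenced as Illumina TruSeq small RNA libraries, per the labels' protocols. The deposited values are unnormalized counts of reads for each small RNA name. Tools listed in the submitters' processing notes, without their roles, are DESeq2 and bcl2fastq 2.17.1.14, with build mm10. The aligner, the counting tool and the small RNA annotation were not given in the sources used here. In each table, 5 closing lines for unassigned reads hold 0 reads, so the share of unassigned reads is unknown. Rows of other species named miR-28, miR-28a, miR-151 or miR-151a held 0 reads, and for miR-151-5p no such row was found.

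Levels are counts per 1000000 mouse miRNA reads (CPM). Mouse miRNA rows were fitted with edgeR 4.0.16 in R 4.3.3 (TMM, filterByExpr with minimum count 10 and minimum total 15, robust quasi-likelihood test, Benjamini-Hochberg adjustment, called under 0.05), and arm ratios with limma 3.58.1 over hairpins. DESeq2 1.42.0 and limma-voom were alternatives. Permutation p-values planned for correlations between arms are not given, since the choice of the arms used their levels. Scripts were tested on simulated data with planted shifts far larger than the differences of the 4 arms and of their ratios. That test therefore does not show whether differences of this size would be called. Intervals on shares are 95% Wilson intervals. The 3 reads allowed by a count of 0 and these intervals cover counting error only. Replicates were numbered within each genotype, and nothing says that they are separate animals, so each p-value measures only the spread among libraries, which may be technical. No pair of libraries agreed within sampling noise (chi-square per degree of freedom at least 46.6 over 21 pairs). Named are the 4 arms, rows with a shared seed, LINE2-linked arms, the 3 most similar miRNAs and the level neighbours of each leading arm, and marker sums. The members and lists were chosen with earlier results of these data known.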

Additional observations from a re-analysis of the deposited data

Results flagged for a closer look

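Each of 27 values was screened for a single KO library lying far from the other 3 KO libraries. The screen marked 1 value, where chance marks about 1 in 20. miR-374b-3p stood at 3.14 CPM in KO replicate 3, from 3 reads, against 0 to 0.258 CPM in the other KO libraries. A count of 0 allows the same 3 reads in that library, so by that rule the value cannot be told from 0. The distance to the nearest library made up 0.918 of the span of the 4 values. With 3 libraries, the WT group was too small for the screen.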

How the results depend on the processing

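No paired analysis was possible because the replicate numbers were given within each genotype and do not link a KO with a WT library. The count of called miRNAs, 6, was 14 with DESeq2, 19 with no filter and, in a choice made after seeing the data, 19 without KO replicate 3 and WT replicate 2, and with 1 library left out in turn it ran from 3, without WT replicate 1, to 14, without WT replicate 2. The log2 fold change of miR-151-5p, 0.34, was 0.28 with upper-quartile factors, 0.26 with library totals alone and 0.38 without that pair, and 0.30 to 0.38 with 1 library left out. It was positive in each of 18 alternatives, as was that of miR-151-3p, and DESeq2 was the one fit that called miR-151-5p. The alternatives reuse the same libraries and the contrast behind the choice of the arms, so these signs are no evidence for a change. The alternative with rows of other species added 0 reads and could not alter the values. With the 4 libraries of consecutive title numbers, log2 fold changes were 0.90 for miR-28a-5p and 0.43 for miR-151-3p. The summed levels, in plain CPM, differed there by 0.42 for miR-28a and 0.33 for miR-151. The arm ratios differed by 0.74 for miR-28a and -0.080 for miR-151. With 1 library left out, the sum of miR-151 in plain CPM differed by 0.19 to 0.27 and that of miR-28a by -0.12 to 0.23. The arm ratio of miR-28a then differed by -0.15 to 0.55, and the log2 fold change of miR-28a-3p was -0.13 to 0.14. The arm correlation of miR-28a turned to -0.81 without the 2 farthest libraries and -0.10 without KO replicate 1, within -0.10 to 0.72 over single omissions. The cause of these shifts was not tested. The count of hairpins called for arm ratio stayed at 0 in each of 10 alternatives. The 14 to 263 reads of the miR-28a arms limit what can be seen: the 95% interval of miR-28a-5p, 0.721 to 1.89, spans lower and higher levels in KO libraries.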

Other observations

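A separate row for a predicted mouse miR-28 held 2 reads in KO replicate 1, 2 in KO replicate 2 and 0 in the other 5 libraries, which is under the 3 reads that a count of 0 allows.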
